A study of Homo sapiens with 36 samples.

Results

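The liver X receptors (LXRs), their retinoid X receptor (RXR) partners and a set of genes that LXRs switch on were followed through HepG2 cells. The cells had been given the omega-3 fatty acid docosahexaenoic acid (DHA), PRO, which is propionate, a short fatty acid, or the phenolic acid protocatechuic acid (PCA), or DHA together with PRO or with PCA. The members were the 9 rows of the count table with the symbols NR1H2, NR1H3, RXRA, RXRB, ABCA1, ABCG1, ABCG5, ABCG8 and MLXIPL, out of 18932 genes in all. HepG2 is a human hepatoma cell line, so every library carries the genome of a single tumour line. The 36 libraries formed 12 groups of 3, 6 treatments at 6 h and the same 6 at 24 h. DHA, bound to BSA, was given at 50 µM, PRO at 70 µM and PCA at 20 µM, the co-treatments DHA+PRO and DHA+PCA used these doses, and Ctrl cells received BSA and vehicle. All groups, Ctrl included, were kept in serum-free medium. Within a group the replicates were independent cultures, each a pool of wells, and a replicate number most likely marks the same culture in every group.

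LXRs are nuclear receptors that sense oxysterols, the oxidised forms of cholesterol, and bind DNA as dimers with RXR. In liver and in macrophages they switch on the pumps that move sterols out of cells, and in liver they also drive SREBF1, which encodes the fatty acid synthesis regulator SREBP-1, and MLXIPL, which encodes the glucose sensor ChREBP. Polyunsaturated fatty acids have been described as competing with oxysterols for LXR. The question put to the members was how they moved where SREBF1 fell with DHA.

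DHA lowered SREBF1 at both times, and no member passed the test in any comparison of a compound. In the 9 libraries with DHA at 24 h, SREBF1 lay between 69.3 and 117 CPM (read counts scaled to library size), with a median of 94.5, and in the 9 without DHA between 117 and 198 CPM, with a median of 148. The groups did not overlap, although the highest library with DHA and the lowest without it, both near 117 CPM, all but touched. At 6 h the range was 54.3 to 71.2 CPM with DHA and 78.3 to 116 CPM without it, and again no library of the one set reached the other. The pooled DHA effect, the mean of DHA against Ctrl, DHA+PRO against PRO and DHA+PCA against PCA, was a log2 fold change of -0.68 ± 0.093 (SE, 9 against 9 libraries; edgeR adjusted p = 7.15e-05) at 24 h and -0.63 ± 0.078 (adjusted p = 1.83e-04) at 6 h. With the replicate number as a block in the edgeR fit, it was -0.68 ± 0.077 (adjusted p = 1.55e-06) at 24 h and -0.64 ± 0.067 (adjusted p = 3.79e-06) at 6 h.

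For the members the same test of edgeR called 0 of the 8 that could be tested at 24 h, where 1.23% of all 11893 genes were called, and 0 of 8 at 6 h, where 0.202% of 11872 genes were called. A gene counted as called at an adjusted p of at most 0.05 with an average log2 CPM above 0. No member reached an unadjusted p under 0.05 at either time in this fit or by the Wald test of DESeq2, although ABCA1 at 6 h did in other edgeR fits, given with its values. The median log2 fold change of the 8 was -0.07 at 24 h and -0.06 at 6 h, beside 0.01 and 0.00 over all genes tested. When the replicate number was a block in the edgeR fit, 367 genes were called at 24 h and 64 at 6 h, with 0 members at either time. In such bulk samples, fewer cells of a kind and less RNA in each cell cannot be told apart.

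**Figure D1:**
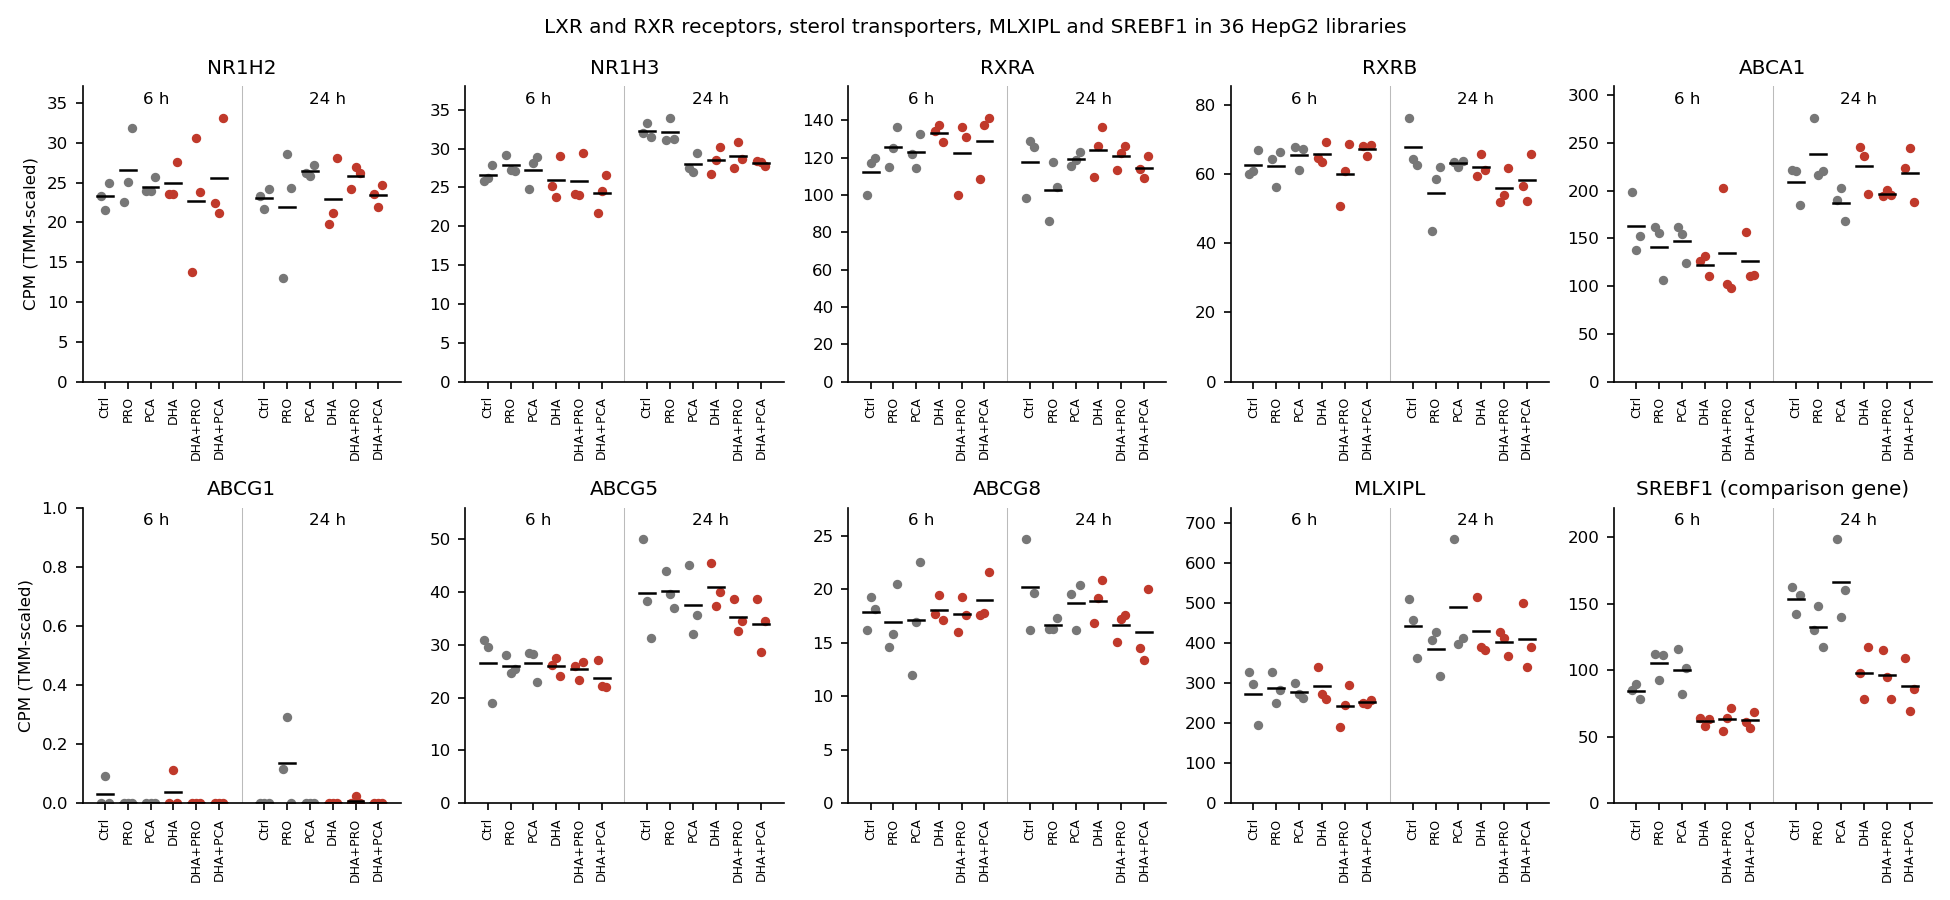
TMM-scaled CPM of the 9 members and of SREBF1 in each library, by treatment, with 6 h on the left and 24 h on the right of each panel. Grey points are libraries without DHA, red points libraries with DHA, and bars are means of 3 libraries. SREBF1 is lower in the red groups at both times, while ABCA1, ABCG5 and MLXIPL differ mainly between the times.

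Library totals ran from 4659744 to 10788964 counts, except DHA+PRO 24 h replicate 2 with 42326734. DHA+PRO 6 h replicate 1 and DHA 6 h replicate 1 lay farthest from their groups, with root mean square deviations of 0.351 and 0.284 on the log2 scale against a median of 0.197, followed by PRO 24 h replicate 1 with 0.263. The DHA+PRO 6 h and PRO 24 h libraries of replicate 1 were also the extremes of several members below. All 9 hepatocyte or hepatoma markers were expressed in the libraries, with ALB at a mean of 26169 CPM and a summed level of 46119 to 64104 CPM. Of 5 macrophage markers, PTPRC, CD163 and MARCO had 3, 3 and 5 reads in all 36 libraries together, while CD68 and CD14 had means of 50.7 and 1.68 CPM, for a macrophage sum of 35.5 to 73.5 CPM. The 4 endothelial markers summed to at most 1.36 CPM, the 5 stellate or fibroblast markers to 28.2 to 76.8 CPM, the 4 cholangiocyte markers to 610 to 896 CPM (KRT7 with 7 reads in all) and the 4 enterocyte markers to 249.2 to 376 CPM (SI with 4 reads). At 24 h the hepatocyte sum was 53544 to 64104 CPM with DHA and 53161 to 62634 CPM without it. In the same order, the macrophage sum was 44.1 to 57.9 and 43.9 to 56.7 CPM, and the cholangiocyte sum 730 to 837 and 777 to 896 CPM. The stellate or fibroblast sum was 54.7 to 76.8 CPM with DHA and 40.0 to 66.5 CPM without it. The enterocyte sum was 299 to 359 and 289 to 376 CPM, and the endothelial sum 0.289 to 1.17 and 0.336 to 1.36 CPM. The part of these other markers in the results was not tested.

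Levels of different genes were set beside each other only per length, as reads per kilobase of counted exon at the CPM scale (RPKM). MLXIPL stood highest with a mean of 106 RPKM over the 36 libraries, above the next gene in 36 of 36 libraries. RXRB followed with 28.5 RPKM, then RXRA with 21.8, SREBF1 with 21.0, ABCA1 with 16.7, NR1H3 with 16.4, NR1H2 and ABCG5 with 11.6 each, and ABCG8 with 6.68 RPKM. Several neighbours in that order were not separated: RXRA exceeded SREBF1 in 22 of 36 libraries, ABCA1 exceeded NR1H3 in 20, and NR1H2 exceeded ABCG5 in 20. ABCG1 stood at 0.00564 RPKM. It had 6 reads in all, in 5 of the 36 libraries, and was dropped by the filter on low counts.

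NR1H3 and NR1H2 encode the receptors LXRα and LXRβ. NR1H3 lies on chromosome 11 (hg19 chr11:47269851-47290584, plus strand) and overlaps the start of ACP2 on the other strand by 548 bases, which a kit that does not mark strand cannot separate. The same limit holds for SREBF1, which overlaps RAI1 by 103 bases, and for RXRB, which overlaps SLC39A7 by 28 bases. At 24 h the level of NR1H3 was 32.05, 33.3 and 31.5 CPM in the Ctrl libraries. It was 26.8, 28.6 and 30.2 CPM in the DHA libraries, 27.6, 30.9 and 28.7 CPM under DHA+PRO, and 28.3, 28.2 and 27.8 CPM under DHA+PCA. Every library with DHA was below every Ctrl library, but the PCA libraries, with 27.6, 27.0 and 29.4 CPM and no DHA, were as low. The pooled DHA effect on NR1H3 was -0.10 ± 0.062 (SE; 95% interval -0.23 to 0.03; adjusted p = 0.641) at 24 h and -0.11 ± 0.075 (adjusted p rounding to 1) at 6 h.

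NR1H2 (chr19:50879680-50886285, plus strand) lay between 19.8 and 28.1 CPM with DHA at 24 h and between 13.03 and 28.6 CPM without it. The medians of both sets were alike, 24.2 and 24.3 CPM. The lowest value, 13.03 CPM, was that of PRO 24 h replicate 1, and at 6 h the lowest was 13.7 CPM in DHA+PRO 6 h replicate 1, both among the libraries that stood apart. The pooled DHA effect was 0.02 ± 0.108 at 24 h and -0.03 ± 0.127 at 6 h, and leaving out those libraries turned its sign, to -0.07 without PRO 24 h replicate 1 and to 0.06 without DHA+PRO 6 h replicate 1.

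RXRA and RXRB encode the RXRα and RXRβ partners, which LXRs share with other receptors. RXRA (chr9:137218309-137332432, plus strand) ran from 109 to 136 CPM with DHA and from 86.1 to 129 CPM without it at 24 h, with a pooled effect of 0.09 ± 0.066. RXRB (chr6:33161362-33168630, minus strand) ran from 52.0 to 66.0 CPM with DHA and from 43.5 to 76.3 CPM without it, with a pooled effect of -0.07 ± 0.071. For both genes the ranges overlapped, and at 6 h the effects were 0.09 ± 0.074 and 0.01 ± 0.066. RXRB had the lowest p of any member in a comparison of single treatments, in PRO against Ctrl at 24 h. Its levels there were 43.5, 58.5 and 62.0 CPM with PRO and 76.3, 64.5 and 62.6 CPM in Ctrl, a log2 fold change of -0.32 ± 0.123 (unadjusted p = 0.0155, edgeR adjusted p = 0.788). No PRO library exceeded a Ctrl library, but the lowest of them was again PRO 24 h replicate 1.

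ABCA1 loads cellular cholesterol onto apolipoprotein A-I, the step that forms HDL, and is the classic target of LXR. Its promoter is shown because it is the only promoter window of the members in which a script found an LXR-like element. The 300 bases from RefSeq (GRCh38.p14, chr9:104928106-104928405, minus strand, 250 bases before to 50 after the start) carry in capitals the match to a direct repeat of AGGTCA with a spacer of 4 letters, the kind of element that LXR and RXR bind, read on the opposite strand with 1 mismatch in each arm.

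ABCA1 promoter: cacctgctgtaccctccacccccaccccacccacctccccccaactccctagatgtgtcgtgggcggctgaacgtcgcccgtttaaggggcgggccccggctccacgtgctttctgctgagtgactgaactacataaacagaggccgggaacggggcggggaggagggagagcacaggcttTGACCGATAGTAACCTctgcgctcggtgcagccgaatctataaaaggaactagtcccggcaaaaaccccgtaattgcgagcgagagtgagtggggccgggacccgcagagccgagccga

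The match covers bases -69 to -54 from the start. Both strands were searched with at most 1 mismatch per arm, and 1.38% of 35116 promoter windows held such a match. RefSeq windows were matched to 8 of the 9 members (all but ABCG1), 13 windows in all, and only that of ABCA1 held a match. A match is a run of letters and not a measured site.

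ABCA1 (chr9:107543284-107690527, minus strand in hg19) did not follow SREBF1 at 24 h. It was 222, 220 and 185 CPM in the Ctrl libraries, 246, 236 and 196 CPM in the DHA libraries, 194, 201 and 195 CPM under DHA+PRO, and 223, 244 and 188 CPM under DHA+PCA. The groups overlapped, and each held libraries above 190 CPM. Over all 9 libraries with DHA the range was 188 to 246 CPM with a median of 201, and over the 9 without DHA 168 to 276 CPM with a median of 216. The pooled DHA effect at 24 h was 0.02 ± 0.065 (adjusted p = 0.946), and its 95% interval ran from -7.41% to 11.5%, while that of SREBF1 ran from -45.3% to -28.5%.

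At 6 h ABCA1 was 198, 137 and 152 CPM in Ctrl, 127, 131 and 110 CPM in the DHA libraries, 203, 102 and 97.8 CPM under DHA+PRO, and 157, 111 and 111 CPM under DHA+PCA. The medians were 111 CPM with DHA and 154 CPM without it, with overlapping ranges. The pooled effect was -0.24 ± 0.133 (unadjusted p = 0.0891, adjusted p rounding to 1), with a 95% interval from -30.1% to 2.81% that overlapped the -42.4% to -27.9% of SREBF1. Its unadjusted p was 0.0388 with the library number series as a factor and 0.0353 with no filter on low counts, and the adjusted p rounded to 1 in both. With the replicate number as a block in the edgeR fit, the effect was -0.25 ± 0.082 (unadjusted p = 0.0063, adjusted p = 0.484). The value of the main fit depended on a single library: without DHA+PRO 6 h replicate 1, at 203 CPM, it was -0.38 (adjusted p = 0.198). Library numbers in the labels fell into an earlier and a later series, and the 6 h difference, taken on mean log2 CPM, was -0.09 within the earlier series (5 libraries with DHA, 6 without) and -0.23 within the later (4 with DHA, 3 without). DHA+PRO 6 h replicate 1 was the only DHA+PRO library of the earlier series, and with that treatment pair left out the earlier value was -0.31 (4 libraries against 4). For the change of the pooled ABCA1 effect from 6 h to 24 h, the difference was 0.25 ± 0.156 (adjusted p rounding to 1).

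**Figure D2:**
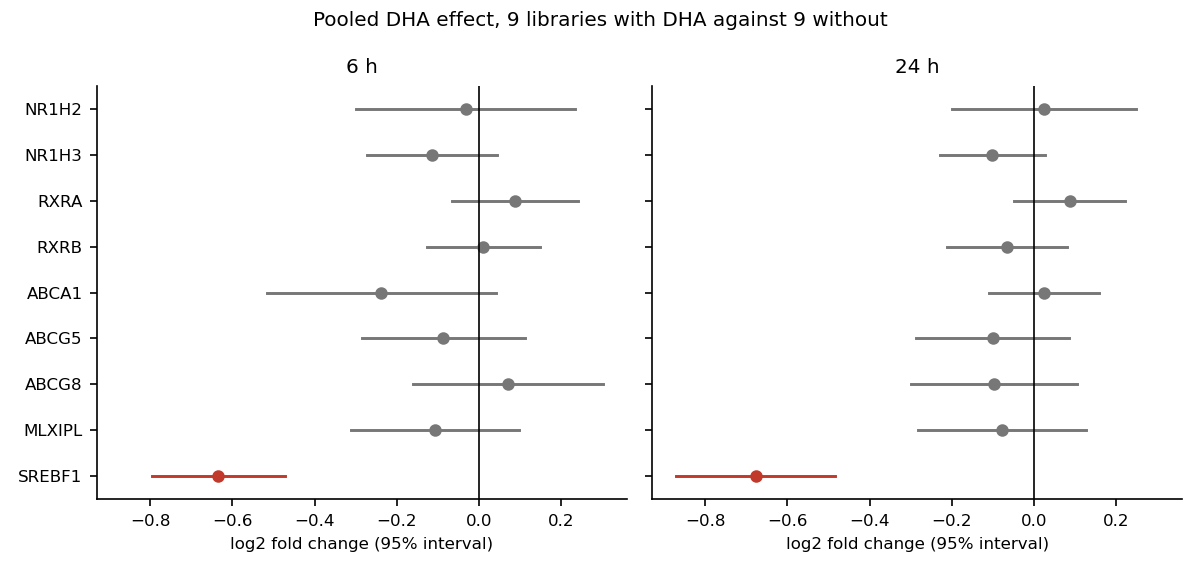
Pooled DHA effect on the 8 members tested and on SREBF1 at 6 h (left) and 24 h (right), as log2 fold changes (points) with 95% intervals (lines) from the edgeR fit of 18 libraries at each time, 9 with DHA and 9 without. Red marks a call; SREBF1 alone is called, at -0.63 and -0.68, and the intervals of all 8 members include 0.

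ABCG1 encodes a pump that passes cholesterol to HDL and is prominent in macrophages. In these hepatoma cells its row (chr21:43619799-43717354) held 0 reads in 31 libraries, and no library had more than 2. A count of 3 would have been 0.0718 to 0.643 CPM depending on depth, so no change of ABCG1 was detectable here.

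ABCG5 and ABCG8 each encode one subunit of the heterodimer that pumps cholesterol and plant sterols into bile. They lie head to head on chromosome 2, ABCG5 on the minus strand (chr2:44039611-44065958) and ABCG8 on the plus strand (chr2:44066103-44105605), with 144 bases between the annotated starts. That gap is shown because it lies before the starts of both genes. It was read from the GRCh37 genome on the plus strand, with the matches to AGATAA, the core letters bound by GATA factors, in capitals on either strand.

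ABCG5 to ABCG8 gap, chr2:44065959-44066102: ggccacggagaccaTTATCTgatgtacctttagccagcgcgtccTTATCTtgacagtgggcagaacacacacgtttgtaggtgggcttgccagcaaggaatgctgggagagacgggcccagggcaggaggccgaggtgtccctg

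The gap held 2 matches, as did 0.239% of windows of 144 bases before the starts of other promoters, of which 4.92% held at least 1. No match to the direct repeat searched in ABCA1 was present in it.

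ABCG5 ran from 28.7 to 45.4 CPM with DHA and from 31.2 to 50.004 CPM without it at 24 h, and ABCG8 from 13.4 to 20.8 CPM and from 16.2 to 24.7 CPM. In both genes the ranges overlapped. The pooled DHA effects were -0.10 ± 0.090 for ABCG5 and -0.10 ± 0.098 for ABCG8 at 24 h, and -0.09 ± 0.095 and 0.07 ± 0.111 at 6 h. Within the later library series at 24 h, with 3 libraries against 3, the differences were 0.07 for ABCG5 and 0.03 for ABCG8, against -0.17 for each within the earlier series of 6 against 6.

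MLXIPL (chr7:73007524-73038870, minus strand) encodes ChREBP, which turns on glycolytic and lipogenic genes when glucose is high. At 24 h it was 509, 456 and 362 CPM in Ctrl, 515, 389 and 381 CPM in the DHA libraries, 426, 413 and 367 CPM under DHA+PRO, and 499, 339 and 389 CPM under DHA+PCA. One PCA library, replicate 1, stood far above the rest with 658 CPM. The ranges with and without DHA, 339 to 515 CPM and 316 to 658 CPM, overlapped widely. The pooled effect was -0.08 ± 0.099 (95% interval -17.8% to 9.16%; adjusted p = 0.860) at 24 h and -0.11 ± 0.098 at 6 h, and without PCA 24 h replicate 1 the 24 h value was 0.01.

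Because ABCA1, MLXIPL and SREBF1 were read in the same libraries, the ratio of their reads carries no scaling between libraries. The log2 ratio of SREBF1 to MLXIPL reads at 24 h lay between -2.39 and -1.70 with DHA, with a median of -2.19, and between -1.73 and -1.21 without it, with a median of -1.53. Only DHA 24 h replicate 3, at the upper end, reached into the range without DHA. The ratio was lower with DHA by 0.62 on the log2 scale (-0.62; exact two-sided permutation test within the treatment pairs, p = 0.00025, the smallest that 8000 arrangements can give). At 6 h the difference was -0.53 (exact permutation p = 0.00025), with -2.41 to -1.80 with DHA and -1.95 to -1.31 without it. SREBF1 was already known to fall in these libraries, by -0.68 at 24 h and -0.63 at 6 h. The ratios carry that fall and are no separate evidence of it.

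SREBF1 to ABCA1 lay between -1.81 and -0.75 with DHA at 24 h and between -1.08 and 0.06 without it. The difference was -0.71 (exact permutation p = 0.002), with -0.78 for DHA against Ctrl, -0.20 for DHA+PRO against PRO and -1.15 for DHA+PCA against PCA. At 6 h it was -0.37 (exact permutation p = 0.0758), so that SREBF1 and ABCA1 were not separated there, and the exact permutation p moved below 0.05 without Ctrl 6 h replicate 1, PCA 6 h replicate 2 or DHA+PRO 6 h replicate 3. SREBF1 to ABCG1 differed by -0.20 at 24 h (exact permutation p = 0.559) and by -0.85 at 6 h (exact permutation p = 0.00375), but ABCG1 had 4 reads at 24 h and 2 at 6 h, so that the presence of single ABCG1 reads and the 0.5 added to each count set much of this ratio, and nothing is read from it. These were 6 tests, and after adjustment over them the ABCA1 value at 24 h was 0.004 and both MLXIPL values 0.00075. The differences from SREBF1 were not tested for the remaining members.

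**Figure D3:**
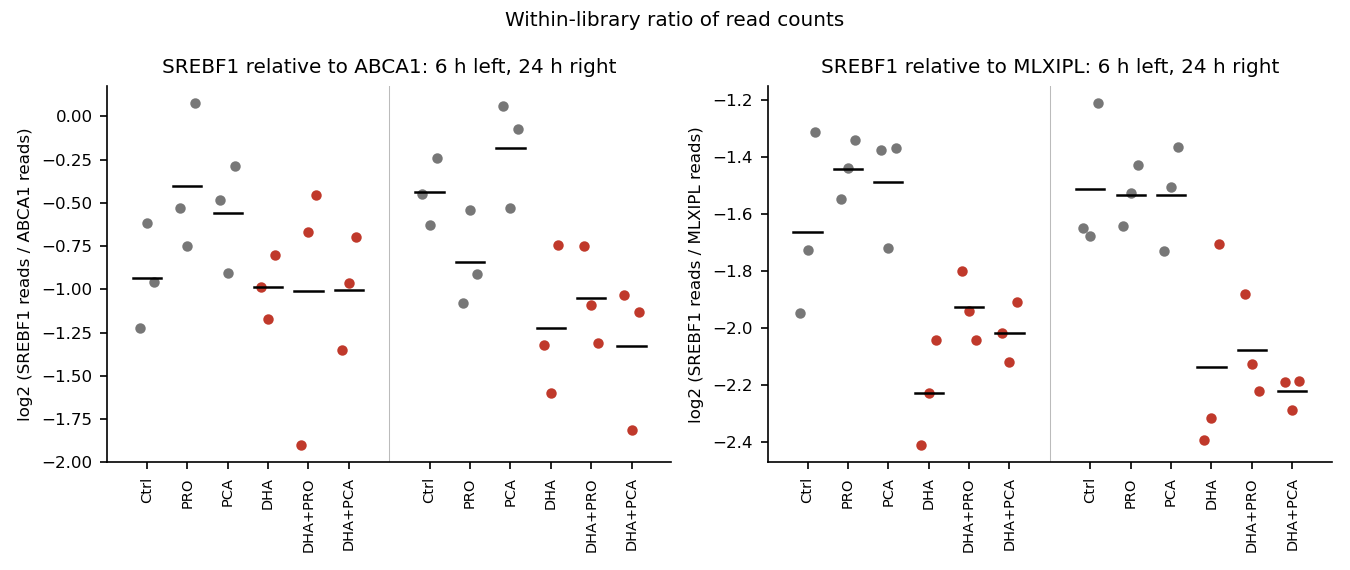
Log2 ratio of SREBF1 reads to ABCA1 reads (left panel) and to MLXIPL reads (right panel) in each library, by treatment, 6 h then 24 h within each panel. Red points are libraries with DHA, grey points those without, and bars are means of 3 libraries; the ratio to MLXIPL is lower with DHA by 0.53 at 6 h and 0.62 at 24 h.

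Each treatment was also set against Ctrl on its own, with 3 libraries against 3. The members called were 0 of 8 in each of the 5 comparisons at 24 h, in which DHA called 0.193%, DHA+PRO 0.395%, DHA+PCA 0.286%, PRO 0% and PCA 0% of all genes. At an unadjusted p under 0.05 the edgeR test counted 1 member in DHA+PRO (RXRB, -0.28 ± 0.121, edgeR adjusted p = 0.562) and 1 in PRO (RXRB, above), and the DESeq2 Wald test counted 1 in each as well. At 6 h 0 of 8 members were called in every treatment, where DHA, DHA+PRO and DHA+PCA each called 0.0168% of genes and PRO and PCA 0%, and 0 had an unadjusted p under 0.05 by either tool in these fits. Adding PRO or PCA to DHA called no member and 0% of all genes at 24 h and at 6 h, and 0 members at an unadjusted p under 0.05 by either tool. These comparisons share the Ctrl or the DHA libraries.

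The ABCA1 log2 fold change at 24 h was 0.12 ± 0.112 for the DHA group, -0.09 ± 0.112 under DHA+PRO and 0.06 ± 0.113 under DHA+PCA, and at 6 h, in that order, -0.41 ± 0.231, -0.28 ± 0.231 and -0.37 ± 0.230. SREBF1 in the same comparisons at 24 h was -0.65 ± 0.162 (adjusted p = 0.145), -0.68 ± 0.160 (adjusted p = 0.0614) and -0.81 ± 0.163 (adjusted p = 0.0226), so that with 3 libraries a group only DHA+PCA passed in this fit. That call was lost when any 1 of 5 of its 6 libraries was left out (all but DHA+PCA 24 h replicate 1), with an adjusted p of up to 0.164. At 6 h SREBF1 was -0.46 ± 0.134, -0.44 ± 0.135 and -0.44 ± 0.134, and none of these passed. With the replicate number as a block in the edgeR fit, all 3 passed at 24 h (adjusted p = 0.0134, 0.00569 and 0.00104, in the same order) and none at 6 h.

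Other genes that LXRs are known to induce were taken as a list of 16, of which 14 were in the table and 11 could be tested. DHA lowered 5 of the 11 at 24 h and raised 0, and lowered 1, SREBF1, at 6 h. The list held a median of -0.21 at 24 h, beside 0.01 over all genes, and 7 of the 11 had an unadjusted p under 0.05, against 9.88% of all genes. The shares called over all genes, 1.23% at 24 h and 0.202% at 6 h, stand beside this count and those of the lists that follow. Both shares hold rises and falls together. The list was chosen with these results known. Besides SREBF1, the fallers were SCD, which makes monounsaturated fatty acids (-0.70 ± 0.043, adjusted p = 1.84e-10), FASN, the fatty acid synthase (-0.66 ± 0.072, adjusted p = 2.10e-06), MYLIP, whose product marks lipoprotein receptors for degradation (-0.59 ± 0.124, adjusted p = 0.0115), and SMPDL3A, a nucleotide phosphodiesterase (-0.44 ± 0.092, adjusted p = 0.00979). SREBF1, SCD and FASN are also known targets of SREBPs. At 6 h, MYLIP was at -0.03 ± 0.151 and SMPDL3A at -0.11 ± 0.131, and the change from 6 h to 24 h passed the test for neither (-0.56 ± 0.197 and -0.34 ± 0.165, adjusted p rounding to 1 for both).

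LPCAT3, which puts polyunsaturated chains into phospholipids, stood just outside the limit at -0.21 ± 0.053 (adjusted p = 0.0546). PLTP, a phospholipid transfer protein of plasma, was at -0.12 ± 0.082, and APOC1, an apolipoprotein, at -0.14 ± 0.079, with adjusted p of 0.701 and 0.605. The remaining genes tested, EEPD1, TTC39B and CETP, at -0.18, -0.14 and 0.34, were not called either, and LPL and ABCG4 were too low to test, with 5 and 4 reads in all.

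**Figure D4:**
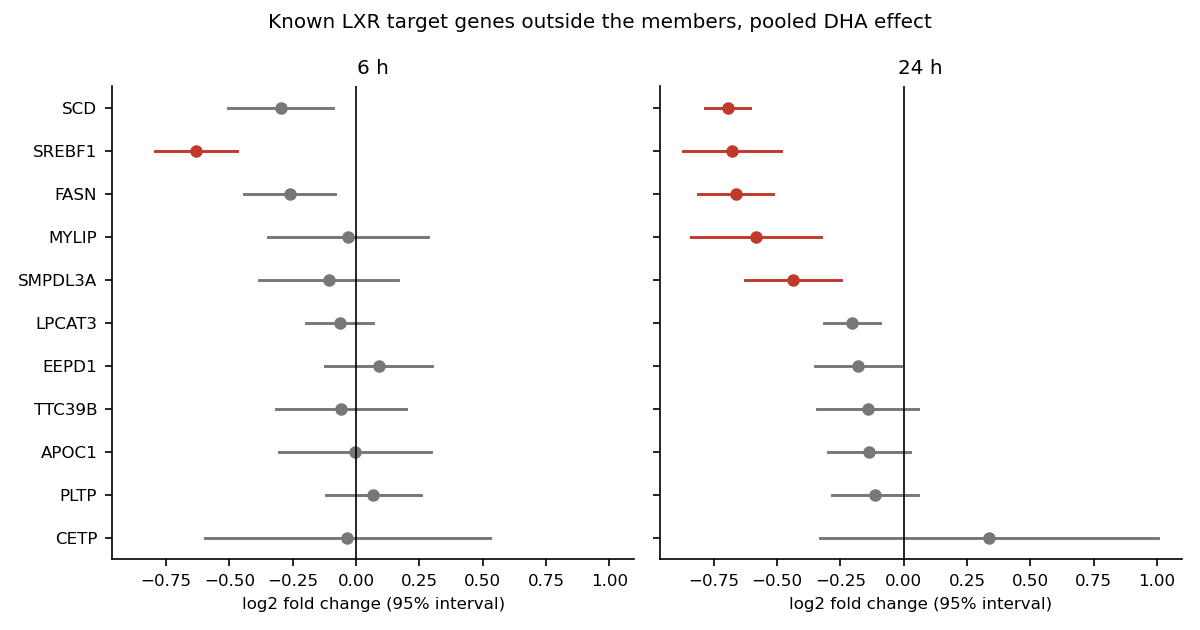
Pooled DHA effect at 6 h (left) and 24 h (right) on the 11 tested LXR target genes outside the members, as log2 fold changes with 95% intervals. Red marks a call: SREBF1 at 6 h, and SCD, SREBF1, FASN, MYLIP and SMPDL3A at 24 h, where they lie between -0.70 and -0.44.

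The genes that feed the LXR pathway or share its parts were grouped in further lists. Of 10 LXR and RXR coregulators, the corepressors and coactivators that the receptors recruit, 0 were called at either time, with NCOA3, MED1 and NCOR1, the highest in CPM, at -0.08, -0.07 and -0.05 at 24 h and NCOA2, with the lowest p, at -0.25 ± 0.091 (adjusted p = 0.269). Other partners of RXR likewise gave 0 of 11 calls at 24 h and 0 of 10 at 6 h, with PPARA at -0.02, NR1H4 at 0.18, PPARD at -0.02 and THRB at 0.17 at 24 h. Among MLXIPL partners and targets 0 of 10 were called at either time. The MLXIPL target TXNIP was at -0.15 ± 0.058 (adjusted p = 0.324), MLXIP at -0.03, KHK at 0.09 and GPD1 at 0.25 ± 0.064 (adjusted p = 0.0505).

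Enzymes that make or clear oxysterols and their sterol precursors held 2 fallers of 6 tested at 24 h, DHCR7 (-0.48 ± 0.064, adjusted p = 5.15e-05) and EBP (-0.30 ± 0.055, adjusted p = 0.00197), both late steps of cholesterol synthesis. CYP27A1, which makes 27-hydroxycholesterol, was at 0.07 ± 0.063 (adjusted p = 0.796) and HSD3B7 at 0.02. None of the 6 was called at 6 h. CH25H had 0 reads, and CYP7B1 and CYP46A1 had 51 and 3 reads in all.

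Of the other ABC and lipid transporters, 1 of 14 rose at 24 h, ABCC3, an exporter of conjugated bile acids (0.30 ± 0.071, adjusted p = 0.0334), and 0 were called at 6 h. The HDL receptor SCARB1 was at -0.0034, ABCC2 at 0.12 and ABCD3 at 0.17. Of 7 tested genes of SREBP-2 and sterol synthesis, taken for comparison, DHA lowered 7 at 24 h and 6 at 6 h. The paper had already reported HMGCS1, IDI1, SQLE, CYP51A1 and MSMO1 from these libraries. This list too was chosen with such results known, so its count is not a test of its own. HMGCS1 was at -0.72 and -0.81, IDI1 at -0.50 and -0.61, SQLE at -0.36 and -0.52, CYP51A1 at -0.48 and -0.47, MSMO1 at -0.48 and -0.80, and STARD4 at -0.40 and -0.64, at 24 h and 6 h in that order. SREBF2 itself passed at 24 h alone (-0.23 ± 0.057, adjusted p = 0.0478). The 24 h calls of ABCC3 and SREBF2 and the 6 h call of CYP51A1 were near the limit, and were lost when any 1 of 13, 14 and 11 of the 18 libraries was left out, with adjusted p of up to 0.0996, 0.116 and 0.0995.

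More members passed with time in culture than with any compound. In the groups without DHA, 4 of 8 members rose from 6 h to 24 h and 0 fell. The comparison called 48.4% of all 12046 genes, 2928 up and 2903 down. A count of 4 calls is near that share, which holds both directions, and whether the members rose more often than other genes was not tested. MLXIPL rose by 0.64 ± 0.107 (edgeR adjusted p = 7.61e-06), from 194 to 328 CPM at 6 h to 316 to 658 CPM at 24 h. ABCG5 rose by 0.57 ± 0.094 (adjusted p = 7.26e-06), with 18.97 to 30.8 CPM at 6 h and 31.2 to 50.004 CPM at 24 h, 2 ranges that did not meet. ABCA1 rose by 0.49 ± 0.110 (adjusted p = 4.68e-04), from 106 to 198 CPM to 168 to 276 CPM, and NR1H3 by 0.17 ± 0.063 (adjusted p = 0.0211). The call of NR1H3 was lost without PCA 6 h replicate 1 (adjusted p = 0.0537).

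SREBF1 rose by 0.64 ± 0.090 over the same interval (adjusted p = 4.58e-07). It was among the 8 of 11 tested genes of the LXR target list that rose, while 0 fell. Over all 12046 genes 48.4% were called, with 2928 up and 2903 down. ABCG8 was at 0.09 ± 0.105, beside the called rise of its head-to-head neighbour ABCG5; the difference between these genes was not tested. RXRA, RXRB and NR1H2 were at -0.09, -0.04 and -0.06. Within the earlier library series the changes were 0.67 for MLXIPL, 0.53 for ABCG5, 0.45 for ABCA1 and 0.19 for NR1H3, and within the later series 0.57, 0.62, 0.59 and 0.13. The pooled DHA effect changed between the times for 0 of 8 members, with 0% of all genes called, and 0 members at an unadjusted p under 0.05 by edgeR or by the DESeq2 Wald test.

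**Figure D5:**
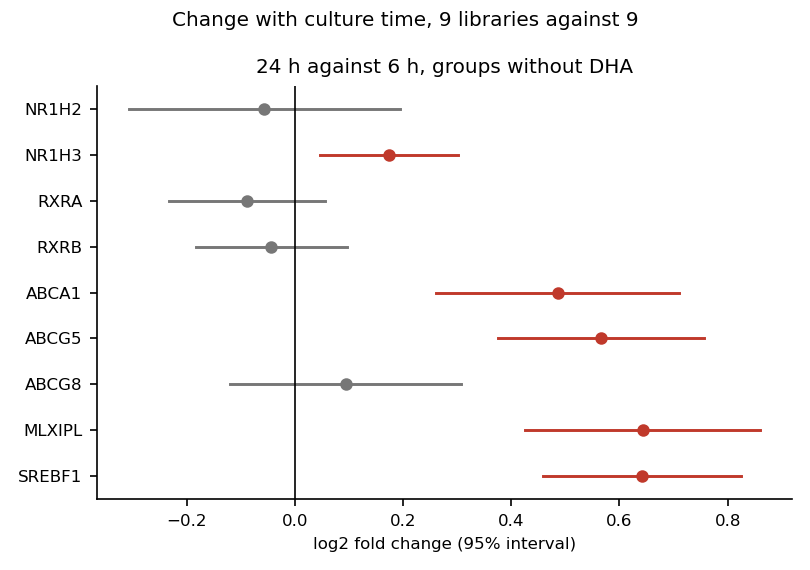
Change from 6 h to 24 h in the groups without DHA (9 libraries at each time) for the 8 members tested and SREBF1, as log2 fold changes with 95% intervals. Red marks a call; MLXIPL, ABCG5, ABCA1, NR1H3 and SREBF1 lie above 0, and the intervals of NR1H2, RXRA, RXRB and ABCG8 include 0.

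The genes whose log2 CPM ran most nearly parallel to each member over the 36 libraries were sought among 10623 expressed genes by Pearson's r, as a description, since the libraries share culture time and depth. For MLXIPL they were SLC17A9 (r = 0.965), MST1 and CHRD, for ABCA1 FAM169A (r = 0.954), SH3D19 and CASD1, and for ABCG5 CAPN12 (r = 0.933), NRBP2 and LY6G5B. NR1H3 ran closest to SREBF2 (r = 0.774), then LIPG and SRCIN1. RXRA ran with PITX1 (r = 0.890), CHMP1A and CTSD, NR1H2 with AKT2 (r = 0.844), FGFR4 and RAB1B, and RXRB with IFI6 (r = 0.759), C1orf115 and COX16. ABCG8 had the weakest neighbours, EHD4 (r = 0.659), WDR55 and VAMP5.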

How the data were processed

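Poly(A)-enriched RNA from HepG2 cells was made into TruSeq v2 libraries, which do not mark strand, and sequenced on an Illumina HiSeq. Per the labels and the study's methods, the authors aligned the reads to hg19/GRCh37 with STAR and made gene counts with the iRNA-seq pipeline. The deposited table holds raw counts for 36 libraries, 1 row per gene, so that SREBP-1a and SREBP-1c are 1 row. Starts in the table count from 0 and are printed from 1.

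Counts were tested with edgeR 4.0.16 (quasi-likelihood F test, filterByExpr, TMM, group means, Benjamini-Hochberg over all genes tested), each time on its own and all 36 libraries for contrasts of time. The limits were an adjusted p of 0.05 and an average log2 CPM of 0. CPM and RPKM used TMM-scaled totals and counted length. Alternatives included DESeq2 1.42.0 and leaving out each library. Scripts were tested on simulated data. Sequences came from the GRCh37 genome and RefSeq (GRCh38.p14). The within-library ratios used counts plus 0.5. Intervals and floors of 3 counts cover counting or model error only.

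The members and lists were chosen with earlier results of these data known. Named were all members and SREBF1, and from each list the genes called with DHA, the up to 3 next highest in CPM and the 1 with the lowest p at 24 h, and for each member the 3 genes most alike; some list genes are not reported here. Within a group HepG2 replicates are independent cultures, and p-values measure the spread between libraries. The paper describes 3 independent cultures, and the labels repeat the same pooled wells for a replicate number in every group. By correlation, 16 of 18 libraries at 6 h and 17 of 18 at 24 h ran best with their own number. Same-numbered libraries therefore most likely share a culture, so libraries pooled over treatments are not all independent. The main fits and the permutation tests left this pairing out and treated libraries as independent. The block fits used it.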

Additional observations from a re-analysis of the deposited data

How the results depend on the processing

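Of 315 recomputed counts of members called, none moved by over 1.5 times: they stayed at 0 in every comparison of a compound and at 3 to 4 of 8 with time, where NR1H3 lost its call with no filter on low counts (adjusted p = 0.0966) and without PCA 6 h replicate 1 (0.0537). Genes called in the pooled DHA effect at 24 h numbered 222 by the DESeq2 Wald test and 113 to 223 when a library was left out, the highest without PRO 24 h replicate 1, against 146. At 6 h they numbered 45 by the Wald test, 46 with the library number series as a factor and 10 to 36 when a library was left out, against 24. The LXR targets called stayed at 5 or 6 at 24 h; the sixth was LPCAT3. Counts of list genes and values of list genes were added as alternatives after seeing the data, as was the earlier-series value of ABCA1 without DHA+PRO 6 h replicate 1. Where 0 genes were called, the Wald test called 1 in PRO against Ctrl and 11 in DHA+PRO against DHA at 24 h and 6 in the change between times, no filter gave 10 in PRO against Ctrl at 24 h and 2 in the change between times, and the series factor gave 1 in the latter. At an unadjusted p under 0.05, members numbered 2 (ABCA1, RXRA) in DHA against Ctrl at 6 h with the series factor and 1 (ABCA1) with no filter or only the groups compared, and 1 (ABCA1) in DHA+PCA against Ctrl at 6 h with the series factor or only the groups compared. At 24 h the series factor added ABCA1 in PRO against Ctrl and in DHA+PRO against DHA, the latter also with only the groups compared.

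Same-numbered libraries tended to deviate together (correlations over 0.1 in 36 of 45 pairs at 6 h and 34 of 45 at 24 h), and 16 and 17 of 18 libraries correlated best with their own number. With the replicate block, 367 genes were called at 24 h and 64 at 6 h, LXR targets called at 6 h numbered 2, and SREBF1 passed in DHA (-0.66, adjusted p = 0.0134) and DHA+PRO (-0.68, 0.00569) against Ctrl at 24 h. It called 1 gene in DHA+PRO against DHA at 24 h and 20 in the change between times. The block changed no call of a member, but ABCA1 had an unadjusted p under 0.05 in the pooled effect at 6 h (-0.25 ± 0.082, edgeR adjusted p = 0.484), in DHA, DHA+PRO and DHA+PCA against Ctrl at 6 h, in PRO against Ctrl and DHA+PRO against DHA at 24 h and in the change between times. So did RXRA in DHA against Ctrl at 6 h and PRO against Ctrl at 24 h, ABCG8 in DHA+PCA against Ctrl at 24 h, and ABCG5 in DHA+PCA against DHA at 24 h.

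Signs that turned were those of uncalled values near 0. When a library was left out, the 24 h pooled effect ran from -0.0086 to 0.062 for ABCA1, -0.14 to 0.013 for MLXIPL (the highest without PCA 24 h replicate 1), -0.072 to 0.11 for NR1H2, -0.011 to 0.041 for HSD3B7, -0.069 to 0.0044 for MLXIP, -0.070 to 0.011 for PPARA, -0.062 to 0.011 for PPARD and -0.054 to 0.033 for SCARB1. ABCA1 in DHA+PCA against Ctrl at 24 h ran from -0.021 to 0.16. At 6 h the range was -0.13 to 0.064 for NR1H2 and -0.024 to 0.052 for RXRB, which was -0.0058 with the series factor. With time, NR1H2 ran from -0.14 to 0.035 and RXRB from -0.079 to 0.0032. The 6 h ratio of SREBF1 to ABCA1 ran from -0.46 to -0.22, with p below 0.05 without Ctrl 6 h replicate 1, PCA 6 h replicate 2 or DHA+PRO 6 h replicate 3. The cause was not tested for any of these.

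The order of levels per length depended on the length used: by gene span RXRA fell from the third place to the eighth (1.05 RPKM) and MLXIPL stayed first (11.1 RPKM).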
